A study of Mus musculus with 2 samples.

Results

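Genes of the IRAK and TRAF families and the scaffold gene Tank were described in resting mouse macrophages. Some of them carry the Toll-like receptor signal from MyD88 toward the inhibitor of kappa B kinases. Others restrain that signal or serve other receptors. The genes are Irak1, Irak2, Irak3, Irak4, Traf1, Traf2, Traf3, Traf5, Traf6 and Tank. They were taken by symbol from the GENCODE M21 annotation and make 10 of its 55536 genes, all 10 present in the gene table. The study measured total RNA after ribosomal RNA depletion in the chromatin fraction of bone marrow-derived macrophages (BMDM) from C57BL/6J mice. The 2 libraries form 1 group, labelled with lipid A at 100 ng/ml for 0 minutes, so no stimulated sample stands beside them and nothing was tested between conditions. The labels name no mutation or transgene, give sex and age as not collected and list the same donor for both libraries. Whether the replicates came from separate animals is therefore not known, and the spread between them may be technical.

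The authors deposited an alignment-based gene table, with a transcript table beside it, and an index-based transcript table for each library. The alignment-based gene tables held 10970767 counts in replicate 1 and 14207280 in replicate 2, the index-based ones 19200416 and 24693077, and levels are from the alignment-based table where no table is named. The labels give 250 ng and 500 ng of input RNA. All 6 macrophage markers (Adgre1, Csf1r, Cd68, Mertk, Lyz2 and Itgam) were detected, at mean levels of 16.0 to 176 TPM. Of 15 markers of T cells, B cells, neutrophils, endothelium, stroma and erythroid cells, 0 were detected and the highest mean was 0.355 TPM, though 3 of the 15 passed the same threshold in the index-based table. Detected means 1 TPM or more in both libraries throughout. TPM, a level per transcript length, divides a gene's counts by the effective length of its transcripts and scales each library to the same sum.

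IRAK proteins are kinases or kinase-like proteins that join MyD88 at an activated receptor in a complex called the Myddosome. IRAK4 acts first there and phosphorylates IRAK1, IRAK2 helps to sustain the signal, and IRAK3, also called IRAK-M, restrains it in macrophages. Most TRAF proteins are RING ubiquitin ligases, and TRAF6 takes the signal from the IRAKs to the TAK1 kinase, while TRAF2, TRAF3 and TRAF5 serve receptors of the tumour necrosis factor family. TRAF1 lacks the RING domain, and TANK is a scaffold that binds TRAFs and the kinases TBK1 and IKK epsilon. Chromatin-associated RNA is rich in transcripts still being made or spliced, so reads in introns that the annotation assigns to a retained-intron transcript are part of these levels.

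Several results below turn on how the reads were divided among transcripts of the same gene, and the sequences at which those transcripts part are shown first, on mm10 and 5′ to 3′ on the gene's strand. Irak1-206 and Irak1-204, full-length coding transcripts, differ in the coding sequence by 3 bases at the start of exon 5, in capitals. Both windows join the end of exon 4 to exon 5 within chrX:74022638-74022872 on the minus strand, with the intron between them left out.
Irak1-206: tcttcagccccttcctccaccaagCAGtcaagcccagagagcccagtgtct
Irak1-204: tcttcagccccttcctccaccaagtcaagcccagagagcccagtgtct

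The next windows show where retained-intron transcripts leave the coding transcript. Exon bases are in lower case and the first 24 intron bases that the retained-intron transcript keeps are in capitals. They are chrX:74022825-74022872 (minus) for Irak1-218, chr1:192057116-192057163 (minus) for Traf5-203, chr2:25530263-25530310 (minus) for Traf2-203 and chr15:94556668-94556715 (plus) for Irak4-203.
Irak1-218: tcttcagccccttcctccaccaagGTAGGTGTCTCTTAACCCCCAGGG
Traf5-203: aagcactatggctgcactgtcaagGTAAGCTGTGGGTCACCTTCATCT
Traf2-203: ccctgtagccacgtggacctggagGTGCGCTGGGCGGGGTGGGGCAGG
Irak4-203: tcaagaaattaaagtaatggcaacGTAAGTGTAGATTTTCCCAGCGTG
The Irak1-218 window opens the same intron whose far end carries the 3 extra bases of Irak1-206. Irak1-218 keeps all 184 bases of that intron, as spliced in Irak1-206, and the 113 bases of the intron before it. Traf5-203 keeps 1763 of the 2697 bases after exon 7, Traf2-203 all 1980 bases after exon 5, and Irak4-203 the first 262 of 1558 bases after exon 6.

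All 10 genes were detected, against 46.7% of the 22015 nuclear protein-coding genes. Their median level was 11.9 ± 0.923 TPM, and that of all protein-coding genes was 0.705 ± 0.0495 TPM (SD of the medians of both libraries, n = 2). Their mean levels stood between the 63.1 and the 93.7 percentile of all protein-coding genes, and between the 21.1 and the 86.6 percentile of the detected ones. Together they held 0.0313% and 0.0366% of all counts. In a bulk sample, fewer cells that make an RNA and less of it per cell cannot be told apart.

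Among the kinases, Irak1 (ENSMUSG00000031392.18, X:74013914-74023918, minus strand) was the highest by mean in the alignment-based table. It stood at 49.54 TPM in replicate 1 and 39.91 TPM in replicate 2, from 850 and 1196 counts with exact Poisson 95% intervals of 794 to 909 and 1129 to 1266. Irak2 (ENSMUSG00000060477.14, 6:113638467-113695026, plus strand), the relative of Irak1 with a role in prolonged signalling, stood at 43.28 and 28.9 TPM, from 493 and 582 counts. The index-based table gave the reverse order in both libraries, with 45.1 and 60.4 TPM for Irak2 and 29.8 and 44.1 TPM for Irak1. In that table the median of all protein-coding genes was 1.71 TPM in replicate 1 and 2.50 TPM in replicate 2. Its TPM are therefore compared between genes here and not between replicates. Rescaled over protein-coding genes, they were 179 and 163 for Irak2 and 118 and 119 for Irak1. Irak2 had the widest spread of the 10 genes in the alignment-based table, 36.1 ± 10.2 TPM, while its RPM values, counts scaled to library size with no length, were 45.1 and 41.1. The effective length that the authors' table gives for Irak2 was 1100 bases in replicate 1 and 1299 bases in replicate 2.

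Irak4 (ENSMUSG00000059883.16, 15:94543643-94581815, plus strand), the kinase at the top of the cascade, stood at 12.19 and 14.12 TPM, from 299 and 456 counts. Its mean of 13.2 ± 1.36 TPM lay well under that of Irak1 at 44.7 ± 6.81 TPM, and the ranges of the libraries did not overlap. Irak3 (ENSMUSG00000020227.10, 10:120141648-120202130, minus strand), the brake of the family, had the lowest level of the 4 IRAK genes, at 8.98 and 9.2 TPM from 150 and 295 counts. Summed over the genes described here, the 4 IRAK genes reached 103 ± 15.5 TPM and the 5 TRAF genes 43.9 ± 1.22 TPM (SD, n = 2). The TRAF sum leaves out Traf4 and Traf7, and Traf7 alone stood at 94.5 ± 4.89 TPM. It also depends on the table, as Traf5 alone had a mean of 51.9 TPM in the index-based table.

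The 5 TRAF genes had means of 3.93 to 12.8 TPM, and the 4 IRAK genes 9.09 to 44.7 TPM. In the index-based table those ranges were 4.98 to 51.9 TPM for the TRAF genes, with Traf5 highest, and 9.62 to 52.7 TPM for the IRAK genes. Traf5 (ENSMUSG00000026637.13, 1:191997205-192092559, minus strand), a partner of Traf2 at receptors such as CD40, stood at 12.44 and 13.09 TPM, from 208 and 333 counts. Traf6 (ENSMUSG00000027164.8, 2:101678429-101701669, plus strand), the ligase that the IRAKs engage, stood at 10.26 and 11.97 TPM, from 335 and 548 counts. Traf6 was thus below Traf5 in both libraries by TPM but above it in both by counts.

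Traf3 (ENSMUSG00000021277.16, 12:111166370-111267153, plus strand), which serves interferon induction and holds back non-canonical NF-kappa B, stood at 8.7 and 7.63 TPM from 339 and 435 counts. Traf2 (ENSMUSG00000026942.13, 2:25517982-25546940, minus strand), the ligase of the tumour necrosis factor receptors, stood at 8.09 and 7.85 TPM from 253 and 381 counts. The ranges of Traf3 and Traf2 overlapped. Traf1 (ENSMUSG00000026875.14, 2:34941750-34961772, minus strand), known as a target of NF-kappa B, was the lowest of the 10 at 3.59 and 4.27 TPM, from 69 and 125 counts with Poisson intervals of 53.7 to 87.3 and 104 to 149. The deposited credibility bounds of Traf1, whose level is not stated, ran from 3.13 to 7.92 TPM and from 3.79 to 7.53 TPM, the widest of the 10 genes relative to the level.

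Tank (ENSMUSG00000064289.15, 2:61578585-61654171, plus strand), the scaffold, stood at 27.61 and 35.91 TPM from 429 and 829 counts. It was above each TRAF gene and above Irak4 and Irak3 in both libraries. In the index-based table Tank, at 19.5 and 37.9 TPM, was below Traf5, at 44.2 and 59.7 TPM.

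In the order of mean TPM, Irak1, Irak2, Tank, Irak4, Traf5, Traf6, Irak3, Traf3, Traf2, Traf1, the ranges of neighbours separated at 5 of 9 steps. Those were Tank over Irak4, Traf5 over Traf6, Traf6 over Irak3, Irak3 over Traf3 and Traf2 over Traf1. Irak1 and Irak2, Irak2 and Tank, Irak4 and Traf5, and Traf3 and Traf2 did not differ beyond their spread. The order depended on the measure. Tank over Irak4 and Traf2 over Traf1 held in both libraries by index-based TPM, RPM, counts per kilobase of merged exons and coding-transcript TPM of the alignment-based table. By coding-transcript TPM of the index-based table each of them held in 1 of 2 libraries. Traf5 over Traf6 held there in both. Traf5 over Traf6 turned round in both libraries by RPM and by coding-transcript TPM of the alignment-based table. Traf6 over Irak3 held in 1 of 2 libraries by index-based TPM. Irak3 over Traf3 turned round in both libraries by index-based TPM, with 7.47 and 11.8 TPM for Irak3 and 9.75 and 14.5 TPM for Traf3, and also by RPM and by coding transcripts. With 2 libraries such a separation is a description and carries no p-value.

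**Figure D1:**
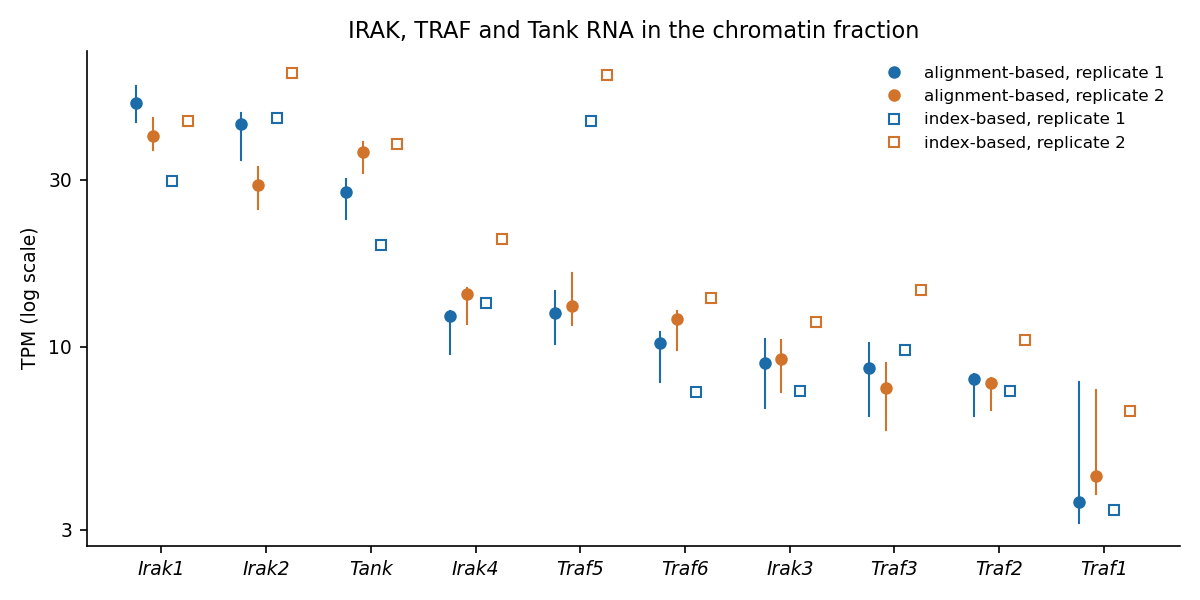
The plot of levels gives TPM on a log axis for each of the 10 genes. Filled circles are the alignment-based gene table with the deposited credibility bounds as lines, open squares the index-based table, and colours the replicates. Traf5 is the gene whose open squares, at 44.2 and 59.7 TPM, lie farthest above its circles.

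By TPM, much of the level of these genes lay on transcripts that are not annotated as coding. By counts, coding transcripts held the larger part in both libraries for the 4 IRAK genes, Traf3, Traf6 and Tank. They did not for Traf1, Traf2 and Traf5. No such share over all genes is given. Of the 75 annotated transcripts, the coding ones alone gave Irak1 16.3 ± 1.07 TPM, Tank 13.6 ± 3.12, Irak2 8.85 ± 0.24, Irak4 8.52 ± 0.417 and Traf3 7.07 ± 1.17 TPM. The other coding levels ran from 4.83 TPM for Traf2 to 1.70 TPM for Traf1. Irak2, near Irak1 by the level of the whole gene, was thus close to Irak4 by its coding transcripts.

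Retained-intron transcripts are annotated for 8 of the 10 genes, all but Traf6 and Tank. Their share of the gene's TPM was highest in Traf5, at 71.4% in replicate 1 and 69.1% in replicate 2, and in Irak1, at 68.6% and 55.2%. It was lowest in Traf3, at 9.20% and 18.1%. Irak2 had 60.4% and 42.9%, Irak3 43.1% and 29.5%, Irak4 27.8% and 41.8%, Traf1 38.9% and 49.4%, and Traf2 38.0% and 41.0%. The share was higher in replicate 1 for Irak1, Irak2, Irak3 and Traf5 and higher in replicate 2 for Irak4, Traf1, Traf2 and Traf3, so the replicates did not differ in 1 direction.

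At 50% or more in both libraries stood 2 of these genes, Irak1 and Traf5. Over the 5042 protein-coding genes with such a transcript and at least 100 counts in each library, 43.3% stood there, and the median share was 49.3% and 48.5%. Traf1 is under that count minimum, so 2 of 7 is the matching share among the genes described here, which is not above the background. In Tank and Traf6 the non-coding part lay on transcripts of the class processed transcript, with 58.8% and 56.0% of the TPM of Tank and 59.9% and 63.0% of that of Traf6. By counts these were the smaller part, with 38.9% and 36.3% in Tank and 24.7% and 25.7% in Traf6.

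By share of TPM, the leading transcript was coding in 5 of 10 genes (Irak3, Irak4, Traf2, Traf3 and Traf6). The others were led by retained-intron transcripts (Irak1-218, Irak2-208, Traf1-208 and Traf5-203) or by a processed transcript (Tank-211). Several of these are short: Irak1-218 has 576 bases and held 35.1 and 36.0 counts, but 20.3% and 17.5% of the TPM of Irak1. By share of counts, a coding transcript led in 7 of 10 genes. For leading transcripts, here and in the comparison of the tables below, no share over all genes is given. These counts are therefore not read as particular to the 10 genes. Retained-intron transcripts held 41.1% and 29.8% of the counts of Irak1, against the 68.6% and 55.2% of its TPM given above. In Traf5 the share of counts, 70.5% and 68.5%, was close to that of TPM. It was larger by counts in Traf1, at 48.9% and 64.0%, and in Traf2, at 48.9% and 50.8%.

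**Figure D2:**
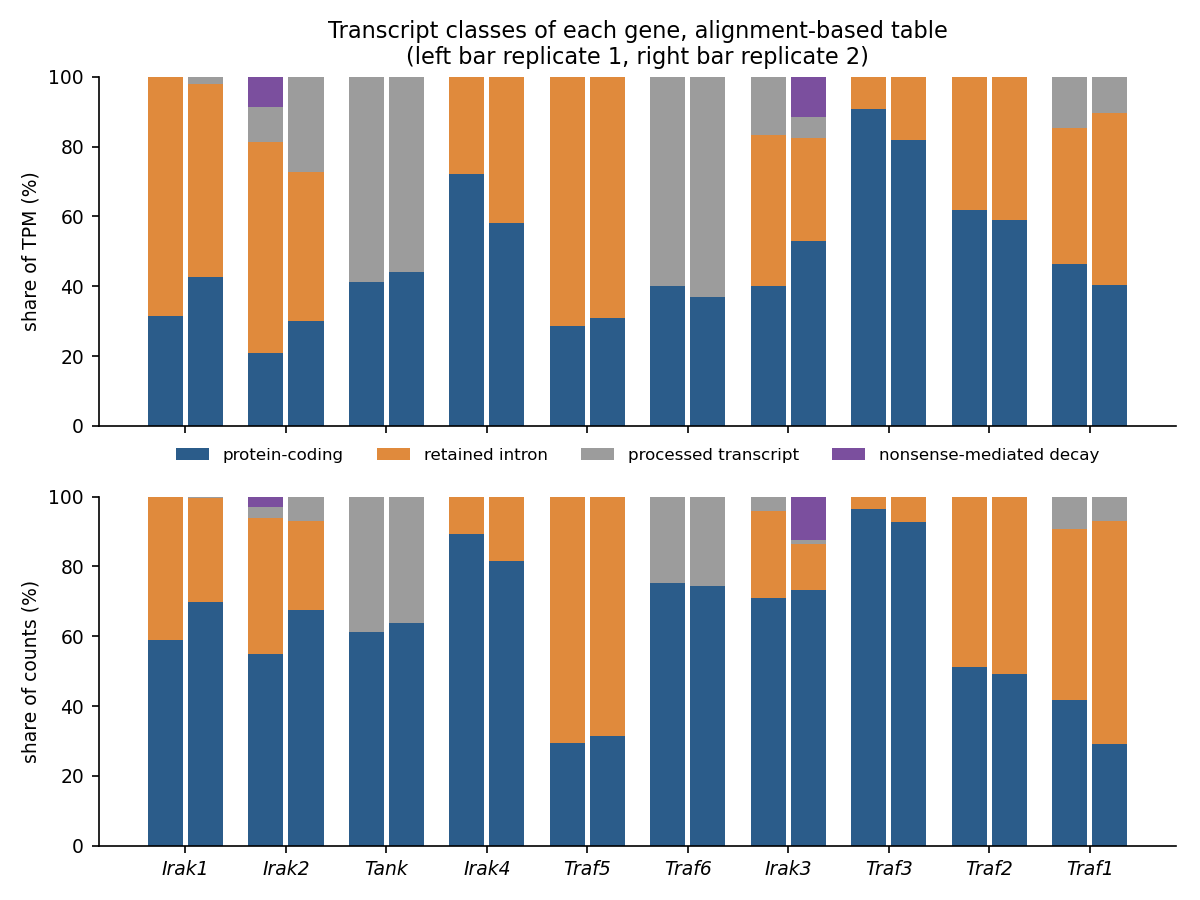
The plot of transcript classes stacks each gene's share (%) of TPM in the upper panel and of counts in the lower panel, with replicate 1 as the left bar and replicate 2 as the right bar. The retained-intron part (orange) is smaller by counts than by TPM for the 4 IRAK genes and Traf3, larger for Traf1 and Traf2, and near 70% in both panels for Traf5.

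The full-length Irak1 transcripts shown above gave opposite splits in the libraries. In the alignment-based table Irak1-206, with the 3 extra bases, held 139 and 599 counts, and Irak1-204 held 318 and 185 counts. Irak1-206 thus made 30.4% of the pair in replicate 1 and 76.4% in replicate 2. The index-based table gave the same lean, with 5.49 and 762 counts for Irak1-206 and 560 and 232 counts for Irak1-204, or 0.972% and 76.7% of the pair. Over the whole gene, the log2 ratio of replicate 2 over replicate 1 on TMM-scaled counts was −0.01 for Irak1, while its TPM was 49.54 in replicate 1 and 39.91 in replicate 2. That lower TPM did not lie on the coding transcripts, whose sum was 15.55 and 17.06 TPM. All 6 retained-intron transcripts had lower TPM in replicate 2, among them Irak1-218 with 10.07 and 6.98 TPM and Irak1-215 with 10.4 and 5.05 TPM. Irak1-206 and Irak1-204 differ by 10 bases in all, 3835 against 3825, with the remainder at their ends, so few reads can tell them apart. Whether the split reflects the RNA or the estimate was not tested.

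Both tables describe the same libraries but assign different numbers of reads, and they did not give each gene the same level. For this comparison TPM was rescaled over protein-coding genes in each table. Traf5 stood at 47.5 and 53.2 rescaled TPM in the alignment-based table, against 175 and 161 in the index-based table, a ratio of 0.271 in replicate 1 and 0.330 in replicate 2. Of the 10 genes, 1 (Traf5) was lower in the alignment-based table by 2-fold or more in both libraries, and 4.22% of 8717 protein-coding genes with at least 50 counts were. The opposite difference was shown by 0 of the 10 genes and by 0.516% of all. The other 9 genes had ratios between 0.722, for Irak2 in replicate 2, and 1.60, for Irak1 in replicate 1.

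In counts, Traf5 in the alignment-based table had 0.110 and 0.134 times its counts in the index-based table, where the median gene had 0.587 and 0.585 times. A ratio as low as that of Traf5 was found for 0.172% and 0.344% of genes. Most of the difference lay on the retained-intron transcript Traf5-203, which held 106 and 175 counts in the alignment-based table and 1671 and 2207 in the index-based table. The coding transcript Traf5-201 held 59.4 and 103 counts in the alignment-based table and 153 and 215 in the index-based table. Of the 2054 windows of 31 bases in Traf5-203, 305 (14.8%) also occur in transcripts of other genes, up to 50 genes for a single window. Over all transcripts of a gene, this shared part was 11.4% for Traf5, 11.0% for Irak2, 6.74% for Irak4 and 3.50% for Traf2, and 0% for Traf3 and Tank. A single window was shared with up to 839 other genes in Irak2, 718 in Irak1 and in Traf2, and 220 in Traf1. The ratios of rescaled TPM were 0.924 and 0.722 for Irak2, 1.60 and 1.36 for Irak1, 1.04 and 1.13 for Traf2, and 1.01 and 0.982 for Traf1. Shared windows were not split by the other gene they occur in. Traf5 has 205 exon bases in common with the overlapping Gm26879 and 65 with the overlapping Mir3473c. In Traf5-201 175 windows were shared and in Traf5-204 35, each with at most 1 other gene. These windows are apart from the 305 of Traf5-203. The part of shared sequence in the Traf5 difference was not tested.

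For Traf2 the tables differed in the division among transcripts, at Traf2-203, and not in the level of the gene as for Traf5. The ratios of rescaled TPM of Traf2 were 1.04 and 1.13. The transcript held 124 and 193 counts in the alignment-based table and 478 and 641 in the index-based table, while the coding Traf2-201 held 94.6 and 158 counts and 77.2 and 136 counts in those tables. The retained-intron share of Traf2 was accordingly 38.0% and 41.0% in the alignment-based table and 68.7% and 67.9% in the index-based table. For Irak4, the coding transcripts with different last exons changed places: Irak4-202 led with 164 and 224 counts over 103 and 148 for Irak4-201 in the alignment-based table, and Irak4-201 led with 335 and 422 counts over 223 and 286 in the index-based table. The same leading transcript by TPM was given by both tables for 1 gene, Traf5.

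**Figure D3:**
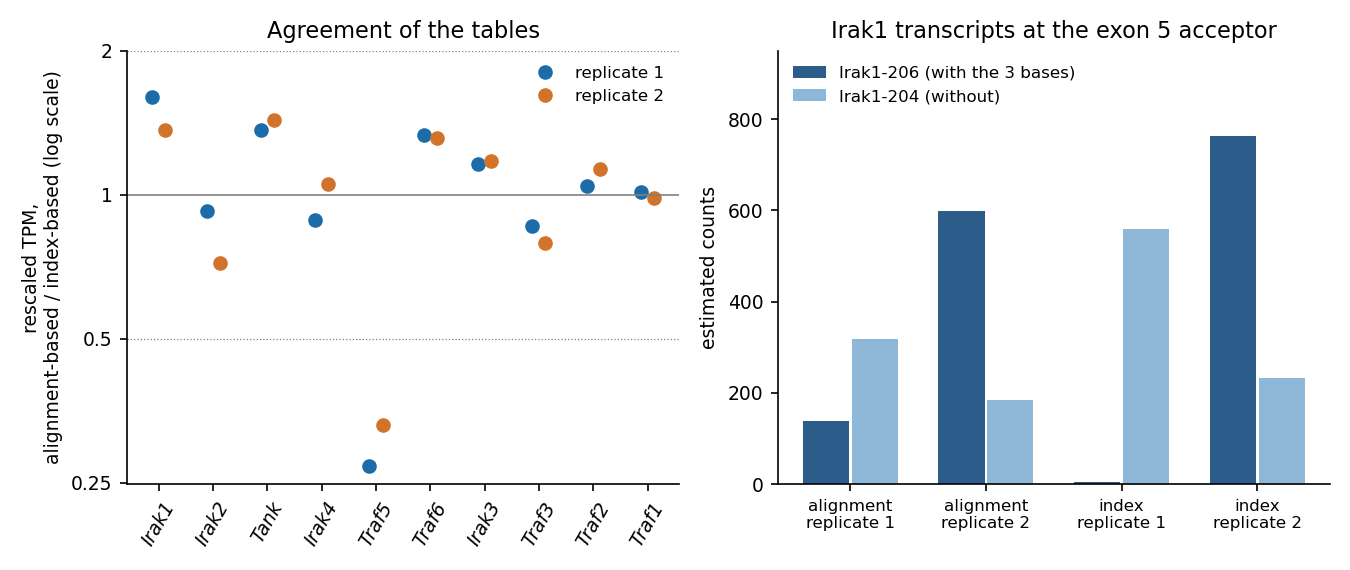
The left panel of the plot of both tables gives, for each gene and replicate, rescaled TPM in the alignment-based table over that in the index-based table on a log axis, with dotted lines at 2-fold; Traf5 lies at 0.271 and 0.330. The right panel gives estimated counts of Irak1-206 and Irak1-204 in each table and replicate, and Irak1-204 is the higher bar in replicate 1 and the lower in replicate 2 in both tables.

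Neighbouring genes share ground with several of these loci. An annotated gene overlaps 7 of the 10, and 5 of them share exon bases with it. No share over all genes is given, so this is not read as particular to these loci. The last exon of Irak4-202 lies on 395 exon bases of Twf1, a coding gene on the opposite strand with 362 and 574 counts. Irak3 shares 192 exon bases with Tmbim4, a coding gene on the opposite strand with 105 and 126 counts. Irak2 shares 196 with Gm43963, a locus of the provisional class TEC on the opposite strand with 150 and 163 counts. Traf5 shares 205 with Gm26879, an antisense gene with 3.13 and 1.59 counts. The microRNA genes Mir5132 and Mir718 inside Irak1 and Mir3473c inside Traf5 had 0 counts. Irak3 also shares 28 exon bases with the antisense gene Gm47009, with 1 and 6 counts. Without shared exon bases, Irak2 overlaps Gm43964, with 1 count in each library, and Gm43912, with 24 and 36 counts. Traf5 likewise overlaps the pseudogene Gstp-ps, with 11.1 and 8.37 counts. No source used here says whether the libraries kept strand, so the reads of opposite-strand neighbours in shared bases cannot be told apart. Traf1, Traf6 and Tank have no overlapping gene, and the neighbours of Traf2 (Gm13433) and Traf3 (4930595D18Rik) share no exon bases with them and had at most 3 counts.

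Between the replicates, 0 of the 10 genes differed by more than 1.5-fold on TMM-scaled counts, against 2.76% of the 9109 protein-coding genes averaging 50 counts or more. Replicate 2 was higher for 7 of the 10, against 54.4% of those genes. It was higher for 8 of the 10 with plain library sizes and for 5 of the 10 in the index-based table. Plain library sizes raise the ratio of every gene, and no share over all genes is given for either setting. The counts of 8 and 5 are therefore not read as particular to the 10 genes. The largest log2 ratios of replicate 2 over replicate 1 were 0.47 for Irak3 and 0.45 for Tank, at the 96.3 and 95.6 percentile of all those genes. The smallest was −0.26 for Irak2, at the 8.57 percentile. From the 5 to the 95 percentile, genes spanned −0.34 to 0.43, so Irak3 and Tank lay just outside it. With plain library sizes in place of TMM, Irak3 reached 0.60 and was the only gene of the 10 past 1.5-fold, again without a share over all genes.

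**Figure D4:**
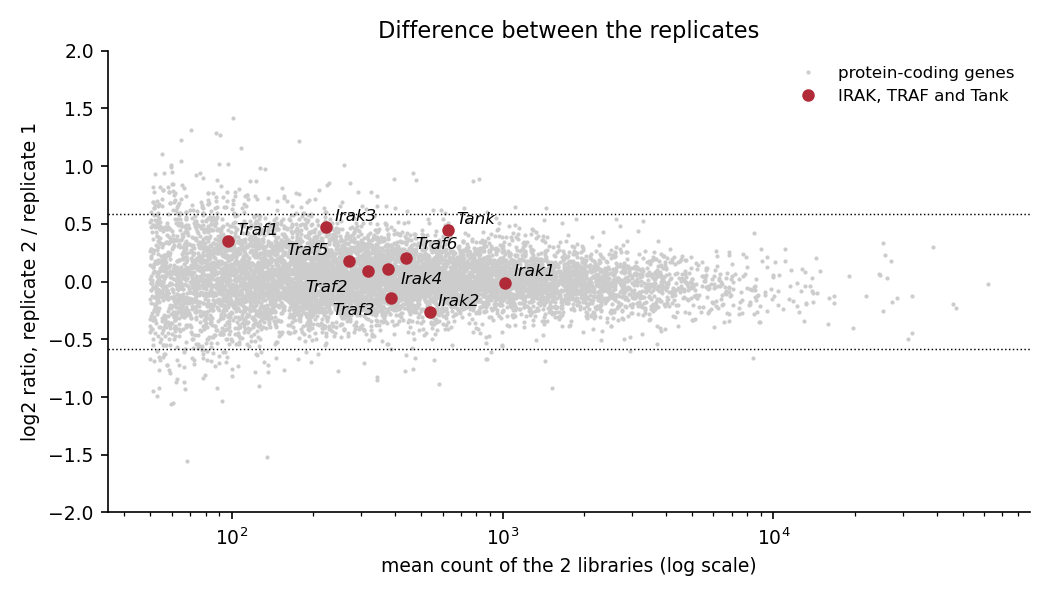
The plot of replicate differences gives the log2 ratio of replicate 2 over replicate 1 against the mean count (log axis) for 9109 protein-coding genes in grey and the 10 genes in red, with dotted lines at 1.5-fold; 2 genes lie beyond the vertical axis. All 10 red points lie between the lines.

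The rest of the pathway was read from 6 lists with 50 genes, of which 47 were detected in each table, Il18r1 only in the index-based and Traip only in the alignment-based table. Of the receptors and adaptors upstream of the IRAKs, 8 of 11 were detected, with a median of 6.75 ± 0.0495 TPM. The lipid A receptor Tlr4 was the highest at 26.0 ± 2.34 TPM. The interleukin receptor chains Il1r1 and Il1rap stood at 0.08 ± 0.0141 and 0.855 ± 0.134 TPM and were not detected. Il18r1 had 0 counts in the alignment-based table, where 0 allows up to 3 counts, or 0.274 and 0.212 RPM, but 3.15 and 4.57 TPM in the index-based table.

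All 12 partners in the Myddosome and TRAF6 step were detected, with a median of 14.6 ± 0.0955 TPM. They ran from Sqstm1, the p62 scaffold that binds TRAF6, at 96.6 ± 7.26 TPM to Peli3, a Pellino ligase, at 2.24 ± 0.445 TPM. The 11 partners of TRAF2 and TRAF3 were all detected as well, with a median of 16.7 ± 0.891 TPM. Their highest was Birc3, the ligase cIAP2 that TRAF2 recruits, at 44.7 ± 2.47 TPM and their lowest the receptor Cd40 at 2.72 ± 1.17 TPM.

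The 6 partners of TANK had the highest median of the lists with more than 2 genes, 65.1 ± 4.82 TPM. Ikbke, which encodes IKK epsilon, stood at 337.18 and 274.32 TPM, and the lowest partner, the adaptor Tbkbp1, at 14.5 ± 2.6 TPM. Tank itself, at 31.8 ± 5.87 TPM, lay below the median of its partners in both libraries. All 8 brakes on the pathway were detected, with a median of 15.4 ± 2.62 TPM, from the deubiquitinase Cyld at 23.9 ± 1.38 TPM to Traip at 1.26 ± 0.163 TPM. Of the remaining members of the TRAF family, Traf7 stood at 94.5 ± 4.89 TPM, above all 5 TRAF genes described here, and Traf4 at 2.06 ± 0.17 TPM, below them (SD, n = 2 throughout).

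**Figure D5:**
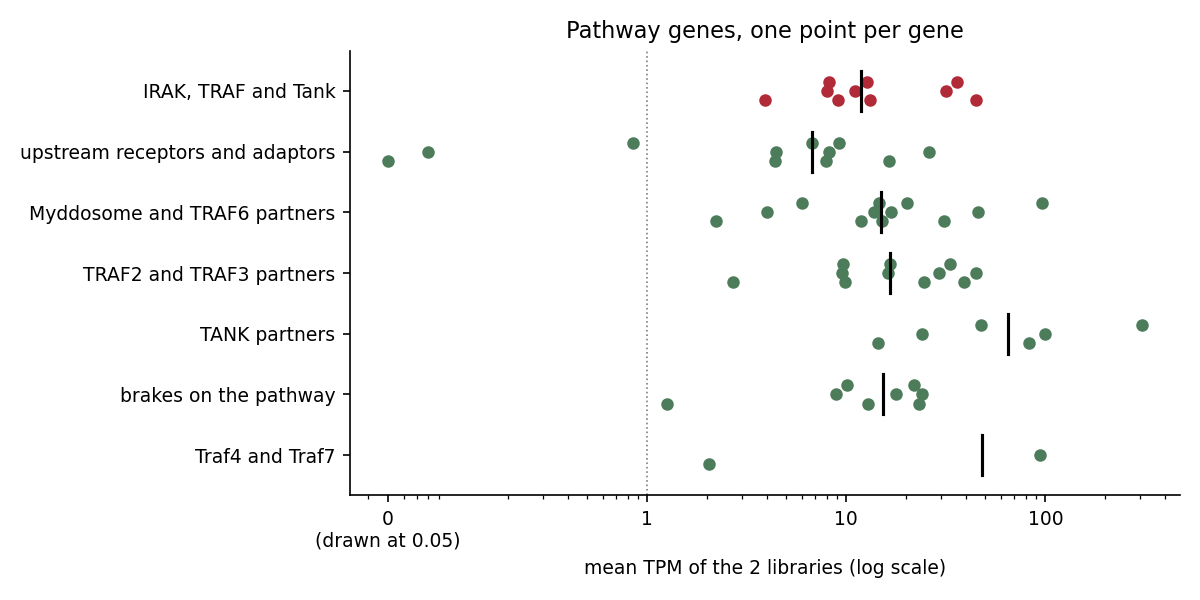
The plot of pathway genes gives the mean TPM of both libraries on a log axis, 1 point per gene, with a black bar at the median of each list and a dotted line at 1 TPM; a gene at 0 is drawn at 0.05. The 10 genes lie between 3.93 and 44.7 TPM, and the 3 undetected points all belong to the upstream receptors.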

How the data were processed

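Per the deposited notes, the authors made a gene table and a transcript table from an alignment to GENCODE M21 transcripts on mm10, and an index-based transcript table from the reads. Tools, versions and the level of the credibility bounds were not given in the sources used. Expected counts, as deposited, estimate reads per gene or transcript and need not be whole. The deposited TPM have the same sum in each table. The deposited transcript shares in percent were recomputed from TPM. phiX (0.338% and 0.27% of counts), 96 spike-in and 26248 numbered entries were left out.

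Transcripts were joined to genes by identifier. Expected counts were rounded and scaled with edgeR 4.0.16 (TMM) or, as an alternative, DESeq2 1.42.0 size factors. Replicate ratios used a pseudocount of 0.5. The TMM scaling and the ratio were also run on simulated Poisson counts. Those hold no spread between replicates beyond counting error, so the run does not cover differences such as input or animal. Means carry the SD of 2 libraries. Poisson 95% intervals and the floor of 3 counts cover only counting error, as the reads carry no molecular identifiers. Python 3.11.15 and R 4.3.3 were used. Sequences were read from the GENCODE M21 transcripts and coordinates from that annotation of mm10. The 10 genes and the pathway and marker lists were chosen with earlier results of these data known. In each list the highest, the lowest and undetected genes were named. The 2-fold comparison of the tables, the 31-base windows and the Irak1 pair were chosen after seeing the values.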

Additional observations from a re-analysis of the deposited data

How the results depend on the processing

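Of 190 values recomputed under the alternatives, 117 stayed within their limits, 72 moved and 1 passed a threshold. Levels and retained-intron shares were held against the SD of the 2 libraries. Each library always lies within that SD of their mean, so leaving out 1 replicate could not move these values. Rescaling over protein-coding genes changes the unit, and all 10 levels moved. These totals are therefore no measure of stability. No value past a threshold changed sign, but log2 ratios between replicates near 0 did: those of Irak1 (0.10, in place of −0.01), Irak4 (−0.04, in place of 0.11), Traf2 (−0.03, in place of 0.09) and Traf5 (−0.08, in place of 0.18) in the index-based table, and that of Irak1 with plain library sizes (0.12) or no filter. The median level of the 10 genes, 11.9 TPM, was 14.4 TPM in the index-based table, 46.9 after rescaling over protein-coding genes, 30.2 as RPM, and, by measures added after seeing the data, 4.92 per kilobase of merged exons and 6.01 over coding transcripts. Their median percentile of 77.8 was 76.0 in the index-based table and 52.5 among detected genes. Plain library sizes put 1 gene, Irak3, past 1.5-fold in place of 0, with no share over all genes beside it. The median retained-intron share of 41.7% was 47.1% in the index-based table and 33.9% by counts. A coding transcript led in 2 genes in the index-based table, in place of 5. The cause of these shifts was not tested beyond each measure's own construction. All 10 genes stayed detected under every alternative except 5 TPM and merged exons (9 each). No paired analysis was possible because there is 1 group. Depth limits Traf1 most, with 69 and 125 counts.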
